A study of Homo sapiens with 6 samples.

Results

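miR-128 is a microRNA (miRNA) made from a pair of precursors, MIR128-1 and MIR128-2, and its products are hsa-miR-128-3p, hsa-miR-128-1-5p and hsa-miR-128-2-5p. These 3 rows were selected by name from the 2588 mature human miRNAs of the deposited table, and no measured value enters that rule. The family was nevertheless proposed with the levels and the group comparison of these samples known, so its levels are given as a description and its test as a value of the fit over all miRNAs, not as independent support. The samples were Huh7 cells, a human hepatoma cell line, transfected with Lipofectamine 2000 and collected 48 h later. The overexpression group (3 samples) received a PLC5-CIR plasmid carrying hsa_circ_0098181, a circular RNA from the SOX5 gene, and the control group (3 samples) received the control plasmid. The comparison asks which miRNAs differ when hsa_circ_0098181 is raised, since circular RNAs can bind miRNAs, and the circular RNA itself is not measured in the miRNA table. All 6 samples come from 1 cell line, and nothing in the labels says that they were separate cultures, so that p-values measure the spread between these samples, which may be technical.

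A miRNA precursor folds into a hairpin, from which the enzymes Drosha and Dicer cut a short duplex. The strand that is loaded into an Argonaute protein, the guide, pairs through its seed (bases 2 to 8) with target messenger RNAs, while the other strand, the passenger, is mostly degraded. miR-128-3p is the guide of both miR-128 precursors. It is best known as a brain-enriched miRNA of neurons, and in liver cells it has been reported to act on ABCA1, which exports cholesterol.

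The sequences show which of the products can be assigned to a precursor, and they were taken from RefSeq (GRCh38.p14). In the hairpins, capitals mark the 5p arm and, after the loop, the 3p arm.
MIR128-1: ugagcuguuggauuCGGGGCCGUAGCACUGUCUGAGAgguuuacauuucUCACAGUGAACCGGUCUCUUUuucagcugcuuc
MIR128-2: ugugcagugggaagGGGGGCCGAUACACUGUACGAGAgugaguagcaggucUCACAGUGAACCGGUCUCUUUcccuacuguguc

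MIR128-1 (ENSG00000207654.4) lies at chr2:135665397-135665478 on the plus strand, within R3HDM1 (ENSG00000048991.16, 135531455 to 135725270, same strand). MIR128-2 (ENSG00000207625.1) lies at chr3:35744476-35744559 on the plus strand, within ARPP21 (ENSG00000172995.16, 35638945 to 35794496, same strand). In GENCODE release 29 (GRCh38), 6 of the 20 annotated R3HDM1 transcripts and 5 of the 35 annotated ARPP21 transcripts span the hairpin, and 0 of them have an exon over it, so that each hairpin is intronic. The hairpins, of 82 and 84 bases, were identical at 63 of 85 aligned positions (74.1%). The 3p arm is the same 21 bases in both hairpins, so that a read of miR-128-3p cannot be assigned to a precursor. The 5p arms are identical at 17 of 23 positions and differ by C1G, U9A, A10U, G11A, C18A and U19C, where the base of miR-128-1-5p stands first, that of miR-128-2-5p last, and positions are counted from the 5′ end. Only the 5p arms therefore report on a precursor.

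With the 7 seed letters in capitals, the 3 products read as follows.
hsa-miR-128-3p: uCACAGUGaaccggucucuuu
hsa-miR-128-1-5p: cGGGGCCGuagcacugucugaga
hsa-miR-128-2-5p: gGGGGCCGauacacuguacgaga
The 5p arms share their seed with each other and not with the 3p arm.

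The libraries held 7144798 to 10786295 counts, and 552 of the 1366 miRNAs with any count passed the filter on low counts and were tested. The liver miRNAs miR-122-5p, miR-192-5p and miR-194-5p together took 346700 to 383951 TPM (here the count scaled to the total count of the sample, with no correction for length) in every library. The 5 blood markers summed to 11.6 to 13.2 TPM in the overexpression group and 15.8 to 18.7 TPM in the control group, the 2 stromal markers to 81.6 to 88.7 and 90.5 to 99.5 TPM, the 3 muscle markers to 1.45 to 2.24 and 1.68 to 2.23 TPM, and the 5 neuronal markers to 138 to 152 and 120 to 173 TPM. The blood and stromal sums did not overlap between the groups on this scale, as was so, with the overexpression group lower, for 90 of the 552 miRNAs tested (16.3%). After TMM scaling, which is used for the comparison of the groups below, the stromal sums overlapped (81.9 to 91.7 against 89.9 to 91.5) and the blood sums did not (12.6 to 13.2 against 14.5 to 18.1), beside 36 of 552 miRNAs (6.52%) apart in that direction. Most of the blood sum was miR-142-3p, at 9.23 TPM on average in the overexpression group and 14.1 TPM in the control group. Of the other blood markers, miR-451a (0.607 against 0.781 TPM) and miR-144-3p (0.167 against 0.301 TPM) were also lower. miR-223-3p (2.02 against 1.52 TPM) and miR-142-5p (0.445 against 0.216 TPM) were higher on average, so that the means did not all move in 1 direction. The blood markers other than miR-142-3p had only 0 to 28 reads per library, and miR-142-5p 1 to 4, so that their directions are uncertain. The part of the cell type markers in the results below was not tested. Control replicate 3 stood apart from the other controls, with a median absolute log2 difference of 0.21 from each of them over 152 abundant miRNAs, against 0.0492 between control replicates 1 and 2 and 0.0785 to 0.105 within the overexpression group. From overexpression replicates 1 to 3 it differed by 0.121, 0.191 and 0.158, less than from the other controls. Control replicates 1 and 2 differed from the overexpression samples by 0.128 to 0.188. Results below are also given without control replicate 3. That fit keeps the 2 controls closest to each other, so that its p-values rest on a smaller spread between controls. Values listed by sample stand in the order of replicates 1 to 3.

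miR-128-3p, the guide, was an abundant miRNA of these cells. It had 56922, 62547 and 63087 reads in the overexpression samples, against 70373, 55577 and 52396 reads in the controls. Its level was 7134, 7385 and 7611 TPM in the overexpression samples, against 6524, 6405 and 7333 TPM in the controls. On this scale control replicate 3 lay inside the range of the overexpression samples, so that the groups overlapped, whereas control replicates 1 and 2 lay below every overexpression sample. Averaged over 3 samples each, this was 7377 ± 238 TPM with the circular RNA plasmid and 6754 ± 505 TPM with the control plasmid (mean ± SD, n = 3). In RNA from whole cultures, a change in the number of cells that express a miRNA and a change in its level per cell cannot be told apart.

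The order of levels places miR-128-3p at rank 23 of all miRNAs by mean TPM over the 6 samples, with 0.707% of the counts. Directly above it stood miR-125b-5p, at 6967 to 8392 TPM, and miR-182-5p, at 6627 to 7787 TPM. Directly below it stood miR-125a-5p, at 5276 to 7029 TPM, and miR-34a-5p, at 4656 to 5533 TPM. The range of miR-128-3p, 6405 to 7611 TPM, overlapped those of miR-182-5p, miR-125b-5p and miR-125a-5p, and lay above that of miR-34a-5p. These are levels per read, without a correction for how well each miRNA is captured in a library.

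The 5p arms were far lower. miR-128-1-5p, the passenger of MIR128-1, had 114, 86 and 80 reads in the overexpression samples, against 101, 91 and 124 in the controls. miR-128-2-5p, the passenger of MIR128-2, was counted 2 times in control replicate 1 and 0 times in each of the other 5 libraries. MIR128-2 thus left almost no locus-specific read in these cells. The limit that a count of 0 allows (3 counts) was 0.346 to 0.420 TPM in these 5 libraries, and this limit and the intervals below cover counting error alone.

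Of the 598 reads of a 5p arm over all samples, 596 (99.7%) were of MIR128-1 and 2 (0.334%, exact binomial 95% interval 0.0405% to 1.20%) were of MIR128-2. In the overexpression group 0 of 280 reads were of MIR128-2 (exact binomial 95% interval 0% to 1.31%). In the control group 2 of 318 were (0.629%, exact binomial 95% interval 0.0763% to 2.25%). A difference between the groups in the use of the precursors was not detectable at this depth. The 6 positions at which the arms differ could be blurred by mismatches allowed in the assignment of reads, which the sources used here do not state. The 5p share describes the passengers, since the origin of the miR-128-3p reads cannot be read from the counts.

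Relative to its passengers, miR-128-3p had 499, 727 and 789 reads per 5p read in the overexpression samples, against 683, 611 and 423 in the controls. The lowest ratio belonged to control replicate 3 and the next to overexpression replicate 1, the libraries with the most miR-128-1-5p, and the groups overlapped. With 0.5 added to each count, the overexpression samples had a log2 ratio of 9.36 ± 0.35 and the controls one of 9.12 ± 0.36 (SD, n = 3 each). The difference of 0.23 was smaller than the spread within either group (two-sided exact permutation test, p = 0.5; the smallest p of this design is 0.1). Without control replicate 3 the difference was 0.029.

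In the table, 17 miRNAs have the layout of miR-128, with a shared arm and another arm named for locus 1 or locus 2. The layout was read from the names alone, so that a further locus of a miRNA would not be counted. By level of the shared arm miR-128-3p was 7th among them, directly below miR-125b-5p, at 7703 TPM on average. Read counts of the locus-specific arm reached 100 in 11 of the 17, and in 5 of these 11 more than 95% of its reads came from 1 locus. These 5 were miR-19b (100% from locus 1), miR-7 (99.99%), miR-92a (99.8%), miR-128 (99.7%) and let-7f (98.2% from locus 2). The balance of loci was wide, since miR-26a had 42.4% from locus 1 and miR-30c had 76.1%. A near absence of locus-specific reads from 1 of the 2 named loci was therefore shared by miR-128 with other miRNAs and was not particular to it. This describes the locus-specific arms and not the output of the loci, since reads of a shared arm cannot be assigned.

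The ratio of the shared to the locus-specific arm, summed over all samples, was 604 for miR-128, and its neighbours in that order were miR-92a, at 1006, and miR-19b, at 574. The median over the 11 miRNAs was 465. The ratio ran from 0.734 for miR-450a, whose locus-specific arm was the more abundant, to 1615 for miR-16. With fewer reads than 100 of the locus-specific arm, miR-24 reached 23585 on 6 reads, and miR-218 had 0 such reads beside 49563 of miR-218-5p. The arms of the different loci differ by only 1 to 7 letters in the 16 of the 17 miRNAs with sequences for both (by edit distance, 5 for miR-128; let-7f could not be compared), so that the shares of the closest pairs are uncertain.

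For the comparison of the groups, TMM factors (0.921 to 1.09) were applied to the counts, and edgeR's quasi-likelihood test was used. After this scaling miR-128-3p stood at 7162, 8024 and 7871 CPM (as TPM, but scaled to the TMM-adjusted library total) in the overexpression samples, against 6495, 6209 and 6743 CPM in the controls. Every overexpression sample lay above every control sample. The groups were apart in this way, with the overexpression group higher, for 49 of the 552 miRNAs tested (8.88%), and in either direction for 85 (15.4%).

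Scaled levels averaged 7686 ± 460 CPM with hsa_circ_0098181 against 6482 ± 267 CPM in the controls (SD, n = 3 each). This is a log2 fold change of 0.25 for miR-128-3p (95% confidence interval 0.081 to 0.41, standard error 0.077, edgeR adjusted p = 0.314), a level 1.19 times that of the control (1.06 to 1.33). It did not pass the threshold of 0.05 on the adjusted p, and 0 of the 552 miRNAs (0%) did. It was among the 50 miRNAs (9.06%) with an unadjusted p under 0.05. The spread between replicates was 5.99% and 4.12% of the mean in the overexpression and control groups, and the counting error was 0.377% to 0.437% per library, so that depth did not limit this value.

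The direction of miR-128-3p was the same in all 14 alternatives, from a log2 fold change of 0.13 with the library size alone to 0.29 without overexpression replicate 1. The smaller value came with a shift of all miRNAs, whose median log2 fold change was 0.0038 with TMM factors but -0.11 without them. Relative to that median, the value was 0.24 under either scaling. A change of scaling moves all miRNAs by nearly the same amount, so that this agreement favours neither scaling. Without control replicate 3 the log2 fold change was 0.26 (standard error 0.063, edgeR adjusted p = 0.00372), and in that fit 56 of 565 miRNAs (9.91%) passed the threshold, of which 18 were higher and 38 lower. In the other 13 alternatives its adjusted p ran from 0.312 to 0.847. The call of miR-128-3p thus rests on leaving out that library, while the size of the difference does not.

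**Figure D1:**
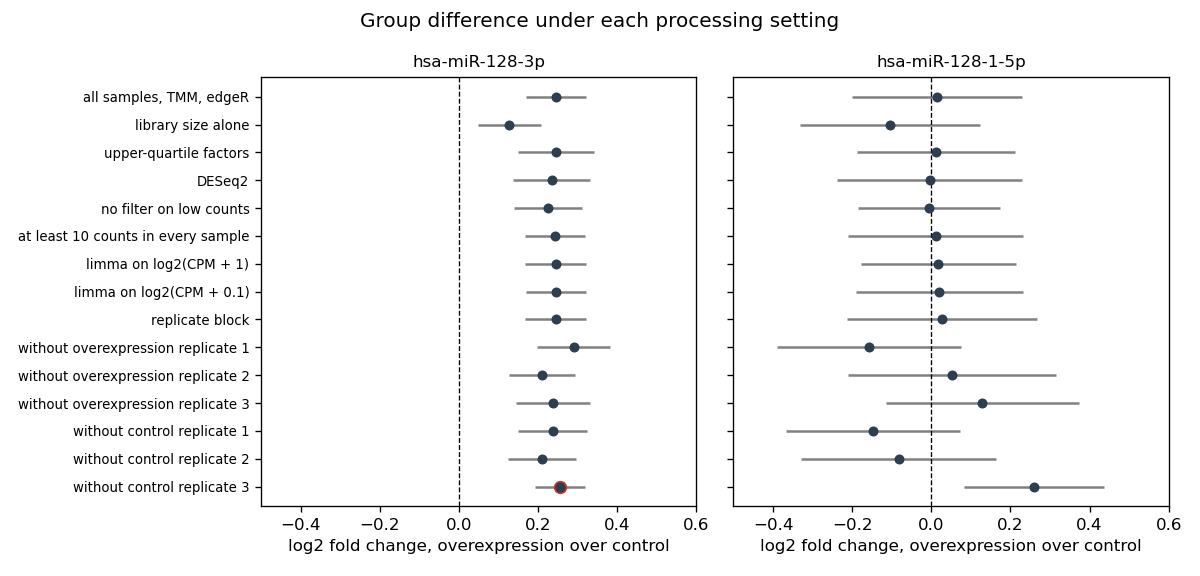
log2 fold change of miR-128-3p (left) and miR-128-1-5p (right), overexpression over control, in the fit with all samples and in 14 alternatives. Points are estimates, grey bars are 1 standard error to each side and a red point marks an adjusted p under 0.05. miR-128-3p lies above 0 in every setting and is red in the fit without control replicate 3 alone, whereas miR-128-1-5p lies on either side of 0.

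miR-128-1-5p showed no settled direction. Its scaled level was 14.3, 11.0 and 9.98 CPM in the overexpression samples, against 9.32, 10.2 and 16.0 CPM in the controls. Control replicate 3 was the highest and control replicate 1 the lowest of the 6, so that the overexpression samples lay inside the range of the controls. Its log2 fold change was 0.014 (95% confidence interval -0.45 to 0.48, standard error 0.21, edgeR adjusted p = 0.979), and over the alternatives it was above 0 in 8 and below 0 in 6, among them the fit with the library size alone. Without control replicate 3 it was 0.26 (edgeR adjusted p = 0.445), close to the value of miR-128-3p in the same fit. With 80 to 124 reads per library the counting error alone was 8.98% to 11.2%, against a spread between replicates of 19.3% and 30.6%. A change of the size seen for miR-128-3p lies inside the confidence interval, whose width comes from the spread between samples more than from the counting error.

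miR-128-2-5p did not pass the filter. Since both groups, with 0 and 2 reads, are at or under 3 counts, no fold change is given. Of the 3 products, 2 were tested and 0 had an adjusted p under 0.05 with all samples.

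Other miRNAs carry the seed letters of miR-128-3p and could act on the same targets. The 7 letters, in capitals below, occupy bases 2 to 8 in 2 other mature miRNAs of the RefSeq table, and bases 3 to 9 in the miR-27 guides, whose seed is thus that of miR-128 moved by 1 base.
hsa-miR-128-3p: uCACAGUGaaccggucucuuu
hsa-miR-216a-3p: uCACAGUGgucucugggauuau
hsa-miR-3681-3p: aCACAGUGcuucauccacuacu
hsa-miR-27a-3p: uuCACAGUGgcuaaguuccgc
hsa-miR-27b-3p: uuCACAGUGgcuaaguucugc

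miR-128-3p supplied almost every read with this exact seed. miR-216a-3p, the passenger of a pancreas-enriched miRNA, had 16, 17 and 18 reads in the overexpression samples, against 26, 11 and 11 in the controls, or 1.27 to 2.41 TPM. miR-3681-3p was counted 0 times in every library. The log2 fold change of miR-216a-3p was 0.31 (standard error 0.34, edgeR adjusted p = 0.757), and its control samples covered the whole range of the overexpression samples.

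The miR-27 guides, which are known for roles in lipid metabolism, were also abundant. miR-27b-3p stood at 9449 to 10679 TPM and miR-27a-3p at 1704 to 2343 TPM over the 6 samples. In the same fit the log2 fold change was -0.13 for miR-27a-3p (standard error 0.085, edgeR adjusted p = 0.617) and 0.068 for miR-27b-3p (standard error 0.071, edgeR adjusted p = 0.743). Neither passed the threshold, miR-27b-3p was at -0.048 with the library size alone, and the median of this pair was -0.029 beside 0.0038 over all miRNAs tested.

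Ratios within a sample, which no scaling of the library can move, were then taken between miR-128-3p and the miR-27 guides, a measure chosen after the values were seen. Per read of miR-27a-3p, miR-128-3p had 3.83, 4.20 and 4.47 reads in the overexpression samples, against 3.43, 3.10 and 3.13 in the controls. The groups did not overlap, with a difference of 0.37 in the log2 ratio (two-sided exact permutation test, p = 0.1, the smallest that 3 samples against 3 allow), and 0.35 without control replicate 3. However, the ratio to miR-27a-3p was apart in this direction for 110 of 551 miRNAs (20%), so that this separation was common.

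Per read of miR-27b-3p, miR-128-3p had 0.690, 0.738 and 0.805 reads in the overexpression samples, against 0.651, 0.633 and 0.687 in the controls. The groups were again apart, though overexpression replicate 1 and control replicate 3 nearly met. The difference in the log2 ratio was 0.18 (two-sided exact permutation test, p = 0.1), and 0.21 without control replicate 3. The ratio to miR-27b-3p was apart in this direction for 20 of 551 miRNAs (3.63%). In the reads of the 3 guides together, miR-128-3p made up 38.7% ± 1.83 of the overexpression samples and 35.3% ± 0.782 of the controls (SD, n = 3 each).

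miRNAs reported to act on ABCA1 or other cholesterol genes lay on both sides of 0. Of the 13 on this list, 12 were tested, with 5 above 0, 7 below 0 and 0 past the threshold in either direction, at a median log2 fold change of -0.087 beside 0.0038 over all miRNAs tested. The values ran from -0.72 for miR-33a-5p, which is encoded within the sterol regulator gene SREBF2 and represses ABCA1, to 0.45 for miR-223-3p. miR-122-5p, the main liver miRNA, stood at a log2 fold change of 0.19 (edgeR adjusted p = 0.314), close to that of miR-128-3p.

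Without control replicate 3, 3 of the 12 tested passed the threshold, all lower, namely miR-33a-5p, miR-148a-3p and miR-96-5p, which acts on ABCA1, beside 38 of all 565 miRNAs (6.73%) that were lower and past it in that fit. Their log2 fold changes in that fit were -0.98 (edgeR adjusted p = 6.65e-05), -0.21 (edgeR adjusted p = 0.00658) and -0.35 (edgeR adjusted p = 0.000182). These directions were opposite to that of miR-128-3p in the same fit. miR-33a-5p had 67, 45 and 62 reads in the overexpression samples, against 145, 137 and 56 in the controls, so that control replicate 3 lay among the overexpression samples. Control replicate 3 also lay among them for miR-148a-3p (52113 CPM, within 51620 to 56417 CPM) and for miR-96-5p (1833 CPM, within 1753 to 1855 CPM).

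miR-128-3p was more abundant than each of the 10 other miRNAs on a list of brain-enriched ones. Beside its mean of 7066 TPM over the 6 samples, miR-218-5p stood at 963 TPM, miR-9-5p, a regulator of neural progenitors, at 123 TPM, miR-137 at 116 TPM and miR-124-3p, the leading miRNA of neurons, at 3.10 TPM. Its range did not overlap that of any of these. The list is a short one, and miRNAs outside it that brain also expresses, such as miR-7-5p at 14396 TPM and miR-125b-5p at 7703 TPM, stood higher. Of these 10, 8 were tested, with 6 above 0, 2 below 0 and 0 past the threshold, at a median log2 fold change of 0.061. The largest of these was that of miR-132-3p, at 0.33 (standard error 0.14, edgeR adjusted p = 0.421).

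The miRNAs whose profile over the 6 samples was most like that of miR-128-3p were miR-125b-5p, miR-25-3p, miR-191-5p, miR-1269b and miR-182-5p. Likeness was the root mean square difference of the log2 scaled levels, each centred on its own mean, and was 0.0277, 0.0285, 0.0307, 0.0379 and 0.0446 in that order. miR-125b-5p stood at 7567, 8811 and 8679 CPM in the overexpression samples and at 6937, 6932 and 7411 CPM in the controls. As for miR-128-3p, overexpression replicate 1 was the lowest of its group and control replicate 3 the highest of the controls. miR-25-3p, of the miR-106b-25 cluster, stood at 30778, 34167 and 32103 CPM and at 27253, 26943 and 28604 CPM in the same order. All 5 are abundant miRNAs, at 825 to 29904 TPM on average, and the profiles share the library factors of the same 6 samples.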

How the data were processed

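Small RNA of Huh7 cells was analysed in 6 samples, grouped by the titles in the labels (overexpression, 3; control, 3). The authors deposited counts of reads per mature miRNA, without normalization, and TPM values, which were recomputed and equal the counts scaled to the sample total (CPM) to within 0.00303. The submitters' processing notes name TopHat2 2.0.9, Bowtie, TopHat and hg38. Trimming, miRNA annotation, mismatches and reads that match several miRNAs are not given in the sources used here, and their effect on the counts was not tested.

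Counts were compared in R 4.3.3 with edgeR 4.0.16 (filterByExpr, minimum count 10 and total 15, TMM factors, quasi-likelihood test, two-sided, Benjamini-Hochberg adjustment over the 552 miRNAs tested, threshold 0.05). Alternatives were DESeq2 1.42.0, limma 3.58.1 on log2 of CPM plus 1 or 0.1, other scalings and filters, the replicate block and leaving out each sample. Ratios used an added count of 0.5 or 5 and exact permutation tests. Replicates differed by more than counting noise (chi-square over its degrees of freedom 15.2 to 132). Of the 2588 miRNAs, 2281 were matched to a RefSeq sequence. Hairpins were aligned with Biopython 1.88.

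Named were the 3 products, miRNAs with the same or an overlapping seed, lists of cholesterol and brain-enriched miRNAs and of markers of other cell types, miRNAs with the same layout of loci, the nearest in level and the 5 most alike in profile. The members and lists were chosen with earlier results of these data known.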

Additional observations from a re-analysis of the deposited data

How the results depend on the processing

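With all samples and TMM factors, edgeR called 0 miRNAs (50 at an unadjusted p under 0.05), and DESeq2 called 0 (41 unadjusted). Scaling by library size alone gave 3 calls and dropping the filter gave 6, all lower, and leaving out each sample in turn gave 0 to 56. miR-128-3p kept its direction in all 14 alternatives, at 0.21 to 0.29 with a sample left out, and was called in the fit lacking control replicate 3 (0.26, edgeR adjusted p = 0.00372). miR-128-1-5p, at 0.014, was -0.10 with the library size alone, -0.0044 with DESeq2, -0.0063 without a filter, -0.16 without overexpression replicate 1, -0.15 without control replicate 1 and -0.082 without control replicate 2, in a range of -0.16 to 0.26 with a sample left out, and its adjusted p was 0.445 to 0.995. The number of tested products below 0, which was 0, was therefore 1 in these 6 fits (0 to 1 with a sample left out).

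The median of the cholesterol list, -0.087, was -0.20 with the library size alone, which moved the median of all miRNAs to -0.11, and -0.13 to 0.019 with a sample left out, above 0 without control replicate 2 alone. That of the miR-27 guides, -0.029, was -0.15 with the library size alone and -0.064 to 0.017 with a sample left out. The difference in the log2 ratio of miR-128-3p to its 5p arms, 0.23, was 0.029 to 0.43 with a sample left out. That of miR-128-1-5p to miR-128-2-5p, 0.60 (two-sided exact permutation test, p = 0.9), was -0.0089 with an added count of 5 and -0.20 to 1.11 with a sample left out (-0.20 without control replicate 1), and it rests on the added count, since 5 libraries had 0 reads of miR-128-2-5p. The causes of the other changes were not tested. A fold change of miR-128-2-5p was not computed, as it had too few reads in both groups.

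The labels do not say that replicate numbers mark a pairing. The deviations of same-numbered samples correlated at -0.0251, 0.145 and 0.24 for replicates 1 to 3 over 152 miRNAs. With 3 samples per group this cannot exclude a shared culture or day. A fit with the replicate block gave a log2 fold change of 0.24 for miR-128-3p (edgeR adjusted p = 0.479) and 0.026 for miR-128-1-5p. In that fit 0 miRNAs passed the threshold (42 unadjusted). The mean paired differences of the log2 ratios, 0.23 for miR-128-3p to its 5p arms and 0.60 for the 5p arms, equal the unpaired ones by construction.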
